A study of Mus musculus with 2 samples.

Results

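The integrated stress response and the unfolded protein response were followed through 10 genes in single-cell RNA of the early postnatal mouse lens epithelium. The genes were chosen by name: Atf4, Atf5, Ddit3, Nupr1, Trib3, Chac1, Asns, Hspa5, Xbp1 and Herpud1. They filled 11 of the 32285 rows of the count tables, because the symbol Ddit3 stands on 2 rows. The row for the open reading frame in the 5′ part of that gene (ENSMUSG00000116429) held 0 UMIs in every group. By counting alone this allows up to 0.0420 CPM in lens cells of pool 1 and 0.0470 CPM in those of pool 2. That row lies within the span of the main row (ENSMUSG00000025408) on the same strand, so the 0 is not read as absence of this stretch from the mRNA. Ddit3 below is the main row. Lens epithelium of wild-type C57BL/6N pups at postnatal day 2 was peeled off with the capsule, dissociated with enzymes and profiled with droplet 3′ RNA sequencing as 2 pools, each of several animals. No treatment or mutant was compared. The groups were therefore built within each pool: bins of lens cells by how far crystallins of differentiating fibers were expressed, and vascular cells left from the vessels around the lens. Every cell had passed through enzymatic dissociation, which all groups shared.

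Both responses slow general protein synthesis and raise a set of rescue genes. Kinases that sense misfolded proteins in the endoplasmic reticulum (ER), amino acid shortage, heme shortage or viral RNA phosphorylate the initiation factor eIF2, and the transcription factor ATF4 is then translated from an mRNA that is otherwise repressed. ATF4 acts with partners on genes for amino acid supply (Asns, asparagine synthetase), on further transcription factors (Ddit3, which encodes CHOP, and Atf5), on the stress protein Nupr1, on Trib3, a pseudokinase that feeds back on ATF4, and on Chac1, an enzyme that breaks down glutathione. The unfolded protein response of the ER adds 2 arms, ATF6 and IRE1, whose splicing of Xbp1 mRNA yields an active factor. Their targets include Hspa5, which encodes the ER chaperone BiP, and Herpud1, a membrane protein of ER-associated degradation. ATF4 is largely controlled by translation and XBP1 by splicing, so that levels of their mRNA, the quantity counted here, are not levels of the active proteins. Lens fiber cells make very large amounts of crystallin and later lose their ER and other organelles.

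The proximal promoters show which of these genes carry short elements known to bind the factors. The RefSeq table (build GRCm38.p6) held 11 promoters for the 10 genes, 2 of them for Atf5, each running from 250 bases before to 50 bases after the start. They were searched on both strands for the ATF4 composite element TGATGNAA, the ER stress element (CCAAT and CCACG held apart by a spacer of fixed length) and the XBP1 element TGACGTGG, where N is any base, and no match overlapped another. The ATF4 composite element occurred in 5 of the 11 promoters (Nupr1, Trib3, Chac1, Asns and Herpud1), against 3.97% of the 32851 promoters in the table. The ER stress element with this spacer occurred in the Hspa5 promoter alone among the 11, against 0.119% of all promoters. Forms of the element with another spacer were not searched, so a promoter without a match may still hold one. The Herpud1 promoter, for example, reads attgggccacg, where attgg is CCAAT on the other strand, set close to ccacg. The share of all promoters with such a stretch was not counted. The XBP1 element was in none of the 11 and in 0.676% of all promoters. Promoters of 4 genes with a matched element are printed, those of Nupr1 and Hspa5 because they had the largest changes among the members tested in quintile 5 below, and those of Asns and Herpud1 to set the ATF4 composite element of Nupr1 beside that of 2 members whose changes were small. They are written 5′ to 3′ on the strand of the gene, with the matched element in capitals. It begins 110 bases before the start in Nupr1, 23 before it in Asns, 112 before it in Herpud1 and 65 before it in Hspa5, and it lies on the opposite strand in Nupr1 and Herpud1.
Nupr1 (chr7:126625421-126625720, - strand): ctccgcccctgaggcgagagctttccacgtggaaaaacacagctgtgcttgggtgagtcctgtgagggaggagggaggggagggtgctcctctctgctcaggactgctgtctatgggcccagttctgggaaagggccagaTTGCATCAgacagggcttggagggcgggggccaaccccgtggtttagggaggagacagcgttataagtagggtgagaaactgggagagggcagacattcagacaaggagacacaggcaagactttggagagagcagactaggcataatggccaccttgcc
Asns (chr6:7693160-7693459, - strand): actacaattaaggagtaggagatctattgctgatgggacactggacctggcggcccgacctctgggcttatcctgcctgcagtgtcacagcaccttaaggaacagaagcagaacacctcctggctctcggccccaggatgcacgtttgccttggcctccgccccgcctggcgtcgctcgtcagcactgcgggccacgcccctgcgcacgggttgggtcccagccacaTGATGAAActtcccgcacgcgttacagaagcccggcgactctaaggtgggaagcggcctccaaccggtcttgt
Herpud1 (chr8:94386179-94386478, + strand): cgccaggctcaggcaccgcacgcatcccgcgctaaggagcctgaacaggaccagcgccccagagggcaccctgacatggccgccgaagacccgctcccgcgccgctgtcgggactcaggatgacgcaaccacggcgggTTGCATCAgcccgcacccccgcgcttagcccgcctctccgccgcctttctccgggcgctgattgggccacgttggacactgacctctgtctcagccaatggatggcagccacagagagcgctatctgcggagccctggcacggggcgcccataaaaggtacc
Hspa5 (chr2:34771840-34772139, + strand): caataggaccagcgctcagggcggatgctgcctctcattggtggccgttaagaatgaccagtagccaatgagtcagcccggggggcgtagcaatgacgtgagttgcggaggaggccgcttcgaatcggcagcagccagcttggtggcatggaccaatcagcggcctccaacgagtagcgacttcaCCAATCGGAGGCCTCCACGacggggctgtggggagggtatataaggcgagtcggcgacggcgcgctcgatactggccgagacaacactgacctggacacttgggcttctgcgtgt

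The tables held 12314 barcodes in pool 1 and 9425 in pool 2, with medians of 6307 and 8050 UMIs (unique molecular identifiers, 1 per captured mRNA molecule). After limits on genes, UMIs, mitochondrial share and doublet score, 10658 and 7836 cells were kept, of which 10106 and 7362 were lens cells by their Cryaa and Cryab share. Marker genes gave 328 and 217 endothelial-like, 164 and 213 mural-like and 25 and 26 macrophage-like cells. Lens markers summed to 2081 and 1909 CPM in endothelial-like cells, against 79990 and 75090 CPM in lens cells. Of all barcodes, 27 occurred in both pools, 20 of them among the kept cells of both pools. CPM here is the UMIs of a gene on the counts-per-million scale, relative to all UMIs summed in the group. 3′ counting gives 1 UMI per molecule, so levels of different genes can be set side by side without gene length.

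Lens cells were ranked within each pool by the share of their UMIs that came from Cryba2, Cryba4 and Crybb1, β-crystallin genes that rise as epithelial cells turn into fibers, and divided into quintiles. Much of the order lay in the top quintile. The share was at most 0.133% (pool 1) and 0.155% (pool 2) in quintile 4, its median was 1.37% and 1.47% in quintile 5, and 2356 lens cells had no UMI of the 3 genes, so that quintiles 1 to 4 differ by a few UMIs per cell. Lens cells were for that reason also divided at fixed shares: under 0.1% (7789 and 5673 cells), 0.1 to 1% (1129 and 790 cells) and 1% or more (1188 and 899 cells). Mural-like cells too held Cryba2 (129 and 144 CPM), Cryba4 (46.2 and 82.2 CPM) and Crybb1 (150 and 140 CPM). The part of free RNA in the low shares that order quintiles 1 to 4 was not tested. Crystallins made up 24.6% and 22.5% of UMIs in quintile 5 against 6.97% and 6.81% in quintile 1. Every other gene is diluted by that difference when it is scaled to total UMIs. The tests used TMM factors, which center most genes at no change. The members' changes in quintile 5 against quintile 1 are also given on total UMIs. On that scale the median log2 fold change of all genes was -0.47, and how much of it comes from crystallins was not tested.

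Quintile 5 moved the genes apart. By edgeR's quasi-likelihood test over 13085 genes, 4 of the 8 members that passed the filter on low counts were higher in quintile 5 than in quintile 1 (Nupr1, Ddit3, Asns and Herpud1), where 33.2% of all tested genes were, and 2 were lower (Hspa5 and Atf4), where 33.5% of all tested genes were. With so many genes called, these counts are not a result about the members, and the sizes of single changes are given below. DESeq2 did not call Asns, and the fit without the pool as a block called neither Asns nor Herpud1. On total UMIs 1 member was higher (Nupr1) and 5 were lower (Hspa5, Atf4, Xbp1, Atf5 and Herpud1). Trib3 and Chac1 did not pass the filter. Against quintile 4, quintile 5 had 3 members higher (Nupr1, Asns and Ddit3), where 29.4% of genes were, and 3 lower (Hspa5, Xbp1 and Atf4), where 30% were. Quintile 4 against quintile 1 had 3 members higher (Nupr1, Xbp1 and Herpud1), where 7.84% of genes were, and 0 lower, where 9.78% were. Of these calls that of Nupr1 alone was made by DESeq2, without the block or without cells holding cell cycle UMIs, and in the last of these Hspa5 was lower (-0.41). For that last fit the remaining cells were ranked anew, so its quintiles are not the same groups of cells. Between the fixed shares, cells of 1% or more against those under 0.1% had 4 members higher and 2 lower, the same ones as quintile 5 against quintile 1, where 34.9% and 35.4% of 12851 genes were. The calls of Herpud1 and Atf4 there were not made by DESeq2 or without the block. The step from under 0.1% to 0.1 to 1% had 2 members higher (Nupr1 and Herpud1), where 21.9% of genes were, and 4 lower (Hspa5, Atf4, Xbp1 and Ddit3), where 22.9% were, of which Nupr1, Hspa5 and Atf4 were also called by DESeq2 and without the block. The step from there to 1% or more had 4 higher (Nupr1, Ddit3, Asns and Atf4), where 22.7% were, and Hspa5 lower, where 22.2% were. Asns was called there by neither of these alternatives, and Atf4 not without the block. Nupr1, Hspa5 and Atf4 kept the direction of their change in quintile 5 against quintile 1 under both scalings.

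**Figure D1:**
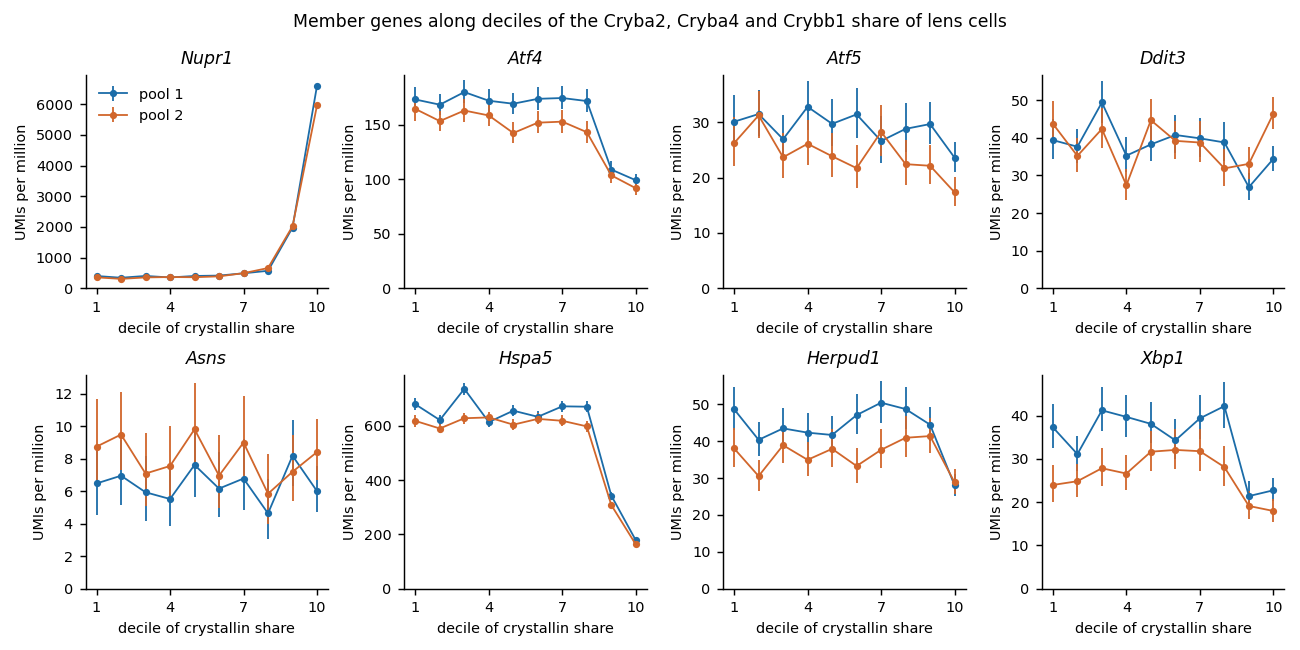
Levels of the 8 members with enough counts in the 10 deciles of the Cryba2, Cryba4 and Crybb1 share (x axis, lowest to highest) in CPM of the summed lens cells of each pool, with 95% Poisson intervals that cover counting error only. Nupr1 climbs to 6605 and 5961 CPM in decile 10 while Hspa5 drops to 178 and 163 CPM, and most of either change lies in deciles 9 and 10.

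Nupr1 was the most abundant member over all lens cells, although Hspa5 was above it in quintiles 1 to 4, and the one with the largest fold change. This small chromatin-associated protein is induced by many kinds of cell stress. Its level over quintiles 1 to 5 was 367, 375, 406, 527 and 4774 CPM in pool 1, and 327, 359, 374, 574 and 4296 CPM in pool 2. In both pools quintile 5 stood far above the other quintiles, whose levels spanned less than the distance to it. The log2 fold change of quintile 5 over quintile 1 was 4.17 ± 0.05 (SE; adjusted p = 9.17e-31 by edgeR, 3.71 on total UMIs), about 18.0-fold. Quintile 4 was higher than quintile 1, by 0.71 ± 0.05 on the log2 scale (adjusted p = 1.22e-12 by edgeR) and by 0.67 on total UMIs. By fixed shares the level was 406 and 389 CPM in lens cells under 0.1%, 1454 and 1444 CPM at 0.1 to 1%, and 6172 and 5538 CPM at 1% or more. In each class the pools lay close together, and no pool of one class overlapped the next. Among lens cells above the upper limits on genes and UMIs, which were left out of the fits, Nupr1 was at 4808 and 4967 CPM.

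Hspa5 changed in the opposite direction. BiP, its product, is the main Hsp70 chaperone of the ER and holds the stress sensors inactive. Over quintiles 1 to 5 Hspa5 was at 647, 674, 645, 672 and 243 CPM in pool 1, and at 603, 630, 615, 609 and 224 CPM in pool 2. Quintiles 1 to 4 lay close together and quintile 5 lay below all of them in both pools. The log2 fold change of quintile 5 over quintile 1 was -0.96 ± 0.03 (adjusted p = 9.02e-20 by edgeR), and -1.42 on total UMIs. The fall was graded within the top quintile, with 343 and 308 CPM in decile 9 and 178 and 163 CPM in decile 10. Between the fixed shares it fell by 0.48 on the log2 scale at 0.1 to 1% against under 0.1%, and by a further 0.76 at 1% or more against 0.1 to 1% (-0.63 and -1.22 on total UMIs). When cells with any UMI of 6 cell cycle genes were left out, the rest were ranked anew into quintiles. Between these other groups of cells, the log2 fold change of quintile 5 over quintile 1 was -1.41.

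Atf4, the central transcription factor of the integrated stress response, was the third most abundant member, with 153 and 139 CPM over all lens cells. Its level was 103 and 96.9 CPM in quintile 5 against 171 and 158 CPM in quintile 1. Both pools of quintile 5 lay below every pool of the other quintiles, which ranged over 147 to 176 CPM. The log2 fold change was -0.25 ± 0.04 (adjusted p = 1.04e-05 by edgeR), and -0.72 on total UMIs. The fall lay at the lower step of the fixed shares: Atf4 was lower at 0.1 to 1% than under 0.1%, by -0.36 on the log2 scale (-0.51 on total UMIs), whereas from there to 1% or more it was higher with TMM, by 0.22, and lower on total UMIs, by -0.24.

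Ddit3, whose product CHOP drives the pro-apoptotic branch of the response, had the same direction as Atf4 at both steps of the fixed shares with TMM. Over the fixed shares it was at 40.0, 26.9 and 34.8 CPM in pool 1 and at 37.8, 32.0 and 45.4 CPM in pool 2, lowest in the middle class of each pool. The middle class was lower than the class under 0.1% by -0.26 ± 0.10 on the log2 scale (adjusted p = 0.0280 by edgeR, -0.41 on total UMIs), and the class of 1% or more was higher than the middle class by 0.90 ± 0.10 (adjusted p = 1.03e-07 by edgeR, 0.44 on total UMIs). Both steps were called under both scalings, although the first was not called by DESeq2 or without the pool as a block, and pool 1 held most of it, with a log2 ratio of -0.41 against -0.09 in pool 2. From end to end the change depended on the scaling. It was 0.35 ± 0.09 for quintile 5 against quintile 1 with TMM (adjusted p = 0.0010 by edgeR) and -0.11 on total UMIs, where it was not called. As a level, quintile 5 had 31.4 CPM in pool 1 and 40.8 CPM in pool 2, against 38.4 and 38.9 CPM in quintile 1, so that the ranges of the groups overlapped. The pools gave log2 ratios of 0.20 and 0.49.

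The other members changed less. Asns was at 6.87 and 7.90 CPM in quintile 5 against 6.75 and 9.17 CPM in quintile 1, overlapping ranges, and its log2 fold change was 0.36 ± 0.13 with TMM (adjusted p = 0.0178 by edgeR) but -0.10 on total UMIs. Herpud1 was at 34.5 and 34.1 CPM in quintile 5 against 44.0 and 33.8 CPM in quintile 1, with a log2 fold change of 0.28 ± 0.07 with TMM and -0.18 on total UMIs, opposite calls on the same counts. Its log2 ratios with TMM were 0.14 and 0.43 in the pools, and those of Asns were 0.46 and 0.19. Herpud1 kept to 44.5 and 41.4 CPM in decile 9 and dropped to 28.0 and 28.8 CPM in decile 10, where both pools were below their own other deciles. Xbp1 was at 22.2 and 18.4 CPM in quintile 5 against 33.8 and 24.5 CPM in quintile 1. Its change was not called with TMM (-0.05, 95% interval -0.22 to 0.11) and was called lower on total UMIs (-0.52). The step of Xbp1 from under 0.1% to 0.1 to 1% was called lower under both scalings, by -0.32 and -0.46, though not by DESeq2 or without the block. Atf5, a relative of Atf4 tied to the mitochondrial unfolded protein response, was at 26.0 and 19.4 CPM in quintile 5 against 30.9 and 29.1 CPM in quintile 1, not called with TMM (0.07, 95% interval -0.10 to 0.24) and called lower on total UMIs (-0.40). Thinned to 3000 UMIs per cell, Ddit3, Asns and Herpud1 were no longer called in quintile 5 against quintile 1 (0.06, 0.06 and 0.24), while Nupr1 (3.86), Hspa5 (-0.81) and Atf4 (-0.23) were.

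**Figure D2:**
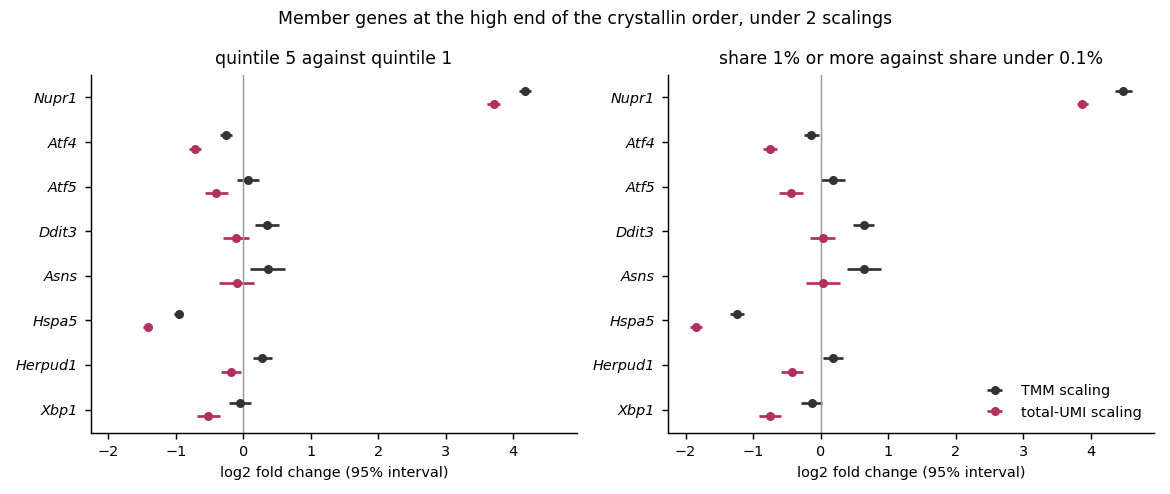
Log2 fold changes (x axis) from edgeR for quintile 5 against quintile 1 (left) and for a share of 1% or more against a share under 0.1% (right), with TMM factors and with total UMIs. The 95% intervals are a normal approximation from edgeR's F statistic. Nupr1 is far to the right and Hspa5 to the left under both scalings, whereas the signs of Herpud1 (0.28 and -0.18 at left) and Atf5 depend on the scaling.

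Trib3 and Chac1, targets of ATF4 and CHOP that are induced in strong stress, were close to absent. All lens cells together held 20 and 23 UMIs of Trib3 (0.280 and 0.360 CPM) and 9 and 14 UMIs of Chac1 (0.126 and 0.219 CPM). In quintile 5 Trib3 had 5 and 4 UMIs, against 3 and 4 UMIs in quintile 1, and Chac1 had 5 and 5 UMIs, against 3 and 2 UMIs. A difference between quintiles was not detectable at this depth. The order of the members in lens cells was thus Nupr1, Hspa5, Atf4, then Herpud1, Ddit3, Xbp1 and Atf5, all between 23.9 and 42.1 CPM, then Asns at 6.46 and 8.05 CPM. Herpud1 and Ddit3 changed places between the pools, and the ranges of Xbp1 and Atf5 over the pools overlapped as well.

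Other features of the cells moved along the same order. Quintile 5 had median depths of 9780 and 11680 UMIs, against 6198 and 8282 UMIs in quintile 1. Cells with a UMI of a cell cycle gene were 11.8% and 13.7% in quintile 5 against 52.9% and 61.8% in quintile 1. The 11 immediate early genes, which dissociation can induce, summed to 4700 and 4600 CPM in quintile 5 against 13819 and 11631 CPM in quintile 1. Of the 11, 10 were lower, where 33.5% of all tested genes were. Mitochondrial UMIs had medians of 4.27% and 4.09% in quintile 5 against 5.39% and 5.19% in quintile 1. Cells that held cell cycle UMIs were then left out and the rest ranked anew into quintiles, which are other groups of cells. In quintile 5 against quintile 1 of these, 3441 of 12198 genes were higher and 3591 lower. Nupr1 (4.14), Hspa5 (-1.41) and Atf4 (-0.18) kept their calls, and Herpud1 (-0.08) and Ddit3 (0.27) were not called. Asns (0.71) and Atf5 (0.36) were higher and Xbp1 was lower (-0.35). The part of depth and of immediate early expression in these changes was not tested.

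Single members also differed between vascular and lens cells. Of the 8 tested members, 3 were higher in endothelial-like than in lens cells (Xbp1, Herpud1 and Ddit3), where 30.8% of 10193 genes were, and 3 were lower (Nupr1, Atf5 and Hspa5), where 32.5% were. In mural-like cells Xbp1 was higher, where 28.1% of genes were, and Nupr1 and Atf5 were lower, where 27.5% were. With so many genes called, these counts too are not a result about the members. Vascular cells were shallower, with median depths of 3083 and 3274 UMIs in endothelial-like and 3297 and 3455 UMIs in mural-like cells, against 6248 and 8110 UMIs in lens cells. Their sums were small, with 1481907 and 961243 UMIs in endothelial-like and 541355 and 741716 UMIs in mural-like cells.

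Nupr1 was far lower in vascular than in lens cells. It was at 57.4 and 65.5 CPM in endothelial-like cells and 55.4 and 56.6 CPM in mural-like cells, against 1679 and 1445 CPM in lens cells. The log2 fold change was -4.92 ± 0.11 in endothelial-like cells (adjusted p = 1.65e-15 by edgeR) and -4.97 ± 0.13 in mural-like cells (adjusted p = 9.33e-15 by edgeR), and -2.66 and -2.72 when only lens cells of quintiles 1 and 2 were the reference. Free RNA from lens cells gives all droplets a low share of lens transcripts. Nupr1 reached 3.42% and 4.54% of its lens level in endothelial-like cells and 3.30% and 3.92% in mural-like cells, and Cryaa, which vascular cells should lack, reached 2.47% and 2.88% in endothelial-like and 2.64% and 2.71% in mural-like cells. Cryab, a small heat shock protein gene that is not particular to the lens, reached 2.71% and 2.26% in endothelial-like and 6.17% and 6.02% in mural-like cells. Nupr1 was thus above Cryaa in each vascular sum and below Cryab in mural-like cells, and the gate on vascular cells itself limited both crystallins. How much of the Nupr1 UMIs in vascular cells came from free RNA was not tested, and they are not read as expression there.

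Xbp1 had the largest rise in vascular cells among the 8 members tested. It was at 79.6 and 54.1 CPM in endothelial-like and 107 and 75.5 CPM in mural-like cells, against 33.2 and 25.7 CPM in lens cells, and no pool of a vascular class fell within the range of the lens cells. The log2 fold change was 0.95 ± 0.15 in endothelial-like cells (adjusted p = 3.22e-05 by edgeR) and 1.44 ± 0.17 in mural-like cells (adjusted p = 1.87e-06 by edgeR). Herpud1 was at 82.3 and 63.5 CPM in endothelial-like cells, against 42.1 and 35.7 CPM in lens cells (log2 fold change 0.68 ± 0.14, adjusted p = 0.000495 by edgeR). In mural-like cells it was at 53.6 and 44.5 CPM and was not called (0.15, 95% interval -0.22 to 0.53). Ddit3 was at 53.3 and 80.1 CPM in endothelial-like cells, against 37.4 and 38.6 CPM in lens cells (0.54 ± 0.18, adjusted p = 0.0142 by edgeR). That call was lost by DESeq2 and on thinned cells, and pool 2 held most of the difference, with a log2 ratio of 0.81 against 0.27 in pool 1. Mural-like cells had 66.5 and 44.5 CPM of Ddit3, not called (0.32, 95% interval -0.12 to 0.77).

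Hspa5 separated the vascular classes. It was at 418 and 398 CPM in endothelial-like cells and at 597 and 574 CPM in mural-like cells, against 539 and 510 CPM in lens cells. Endothelial-like cells were lower than lens cells by -0.59 ± 0.08 on the log2 scale (adjusted p = 7.77e-06 by edgeR) and lower than mural-like cells by -0.57 ± 0.09 (adjusted p = 8.88e-05 by edgeR), where 19.1% of genes were lower. Between the vascular classes it was the only member called, with 0 higher where 17.5% of genes were, whereas Xbp1 narrowly missed (-0.49, adjusted p = 0.0523 by edgeR). Atf5 rested on few molecules, 28 and 8 UMIs in endothelial-like and 10 and 5 UMIs in mural-like cells. These are 18.9 and 8.32 CPM and 18.5 and 6.74 CPM, against 28.7 and 23.9 CPM in lens cells, and both differences were called (-1.13 ± 0.26 and -1.33 ± 0.36). Pool 2 had the larger ratios, -1.64 and -1.85 against -0.81 and -0.80 in pool 1. Atf4 was at 209 and 192 CPM in endothelial-like and 157 and 171 CPM in mural-like cells, against 153 and 139 CPM in lens cells, called in neither with TMM and called higher in endothelial-like cells on total UMIs (0.46). Asns had 10 UMIs or fewer in each vascular sum. Trib3 had 1 and 0 UMIs and Chac1 had 4 and 1 UMIs in endothelial-like cells. In these small sums Chac1 was at 2140% and 475% of its very low lens level, and at 1464% and 0% in mural-like cells. These ratios rest on a few molecules and are not read as a difference.

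**Figure D3:**
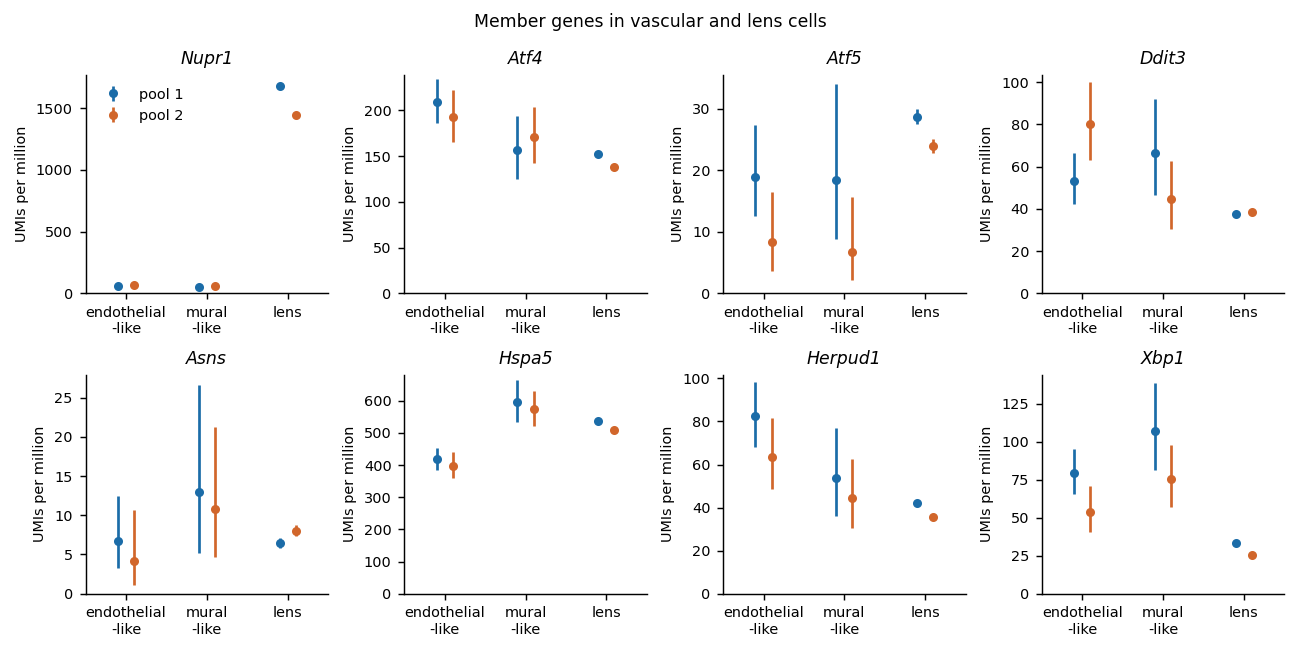
Levels of the 8 members in endothelial-like, mural-like and lens cells (x axis) in CPM, 1 point per pool, with 95% Poisson intervals for counting error only. Nupr1 is at 1679 and 1445 CPM in lens cells and between 55.4 and 65.5 CPM in the vascular classes, Xbp1 is higher in both vascular classes, and Hspa5 is lowest in endothelial-like cells (418 and 398 CPM).

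The 25 and 26 macrophage-like cells gave sums of 96262 and 110074 UMIs, too few for the fits. Ddit3 was at 135 and 145 CPM there (13 and 16 UMIs), above every other class in both pools, and its 95% Poisson intervals, from 71.9 and 83.1 CPM upward, did not reach the levels of lens cells. Xbp1 was at 156 and 81.8 CPM and Atf4 at 229 and 236 CPM. Nupr1 was at 197 and 118 CPM, which is 11.8% and 8.17% of its lens level, where Cryaa was at 3.34% and 3.10%. These values are given as a description, with no test.

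Lens cells with a Ddit3 molecule were compared with lens cells without one, to see which genes go with Ddit3 within single cells. Each cell was thinned to 3000 UMIs, so that depth did not decide who held a UMI. Ddit3-positive cells were 9.67% and 10.3% of the thinned lens cells (950 of 9827 and 734 of 7144). A cell without a UMI may still express the gene. Of the 7 other members tested, 4 were higher in Ddit3-positive cells and 0 were lower, where 0.964% of 12454 genes were higher (the 120 genes include Ddit3 itself) and 0.353% were lower. Atf4 was at 200 and 169 CPM in Ddit3-positive cells, against 155 and 138 CPM in Ddit3-zero cells (log2 fold change 0.34 ± 0.05, adjusted p = 1.57e-06 by edgeR). Herpud1 was higher by 0.41 ± 0.10, Nupr1 by 0.21 ± 0.03 and Hspa5 by 0.13 ± 0.03 on the log2 scale. Pool 1 had the larger ratios for all 4, with 0.30 against 0.10 in pool 2 for Nupr1, 0.51 against 0.22 for Herpud1 and 0.19 against 0.04 for Hspa5. Without the pool as a block 0 members were called by edgeR, with 2 at an unadjusted p under 0.05, and DESeq2 called 0, with 1 at that limit, although the sizes were alike (Atf4 0.34 in both). Within each of the 5 quintiles and 2 pools, Atf4 was higher in Ddit3-positive cells in 9 of 10 strata, Nupr1 in 9, Herpud1 and Hspa5 in 8, and Xbp1 in 6. In quintile 5 the pools differed in sign for Atf4 (-0.45 in pool 1 and 0.13 in pool 2), Herpud1 (0.72 and -0.25) and Hspa5 (0.03 and -0.34). Nupr1 was higher there in both (0.45 and 0.19). Among cells with a share under 0.1% alone, Atf4 (0.39), Herpud1 (0.42), Nupr1 (0.26) and Hspa5 (0.12) were again called.

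Immediate early genes were higher in the same cells. They summed to 15694 and 13789 CPM in Ddit3-positive cells, against 11379 and 9727 CPM in Ddit3-zero cells. Of the 11 genes 10 were higher (median 0.51 on the log2 scale, against -6.2e-05 over all genes), where 0.964% of all tested genes were. Btg2 was higher by 0.65, Jun by 0.51, Fos by 0.43 and Egr1 by 0.38. DESeq2 called the same number, and the fit without the block called 0. Atf3, a stress factor that both ATF4 and immediate early signals induce, was higher by 0.96 ± 0.05, Ppp1r15a, which encodes the eIF2 phosphatase subunit GADD34, by 0.40 ± 0.10, and the amino acid transporter gene Slc38a2 by 0.17 ± 0.03. DESeq2 and the fit without the block called Atf3 but neither Ppp1r15a nor Slc38a2. The part of the immediate early signal in the member differences was not tested.

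**Figure D4:**
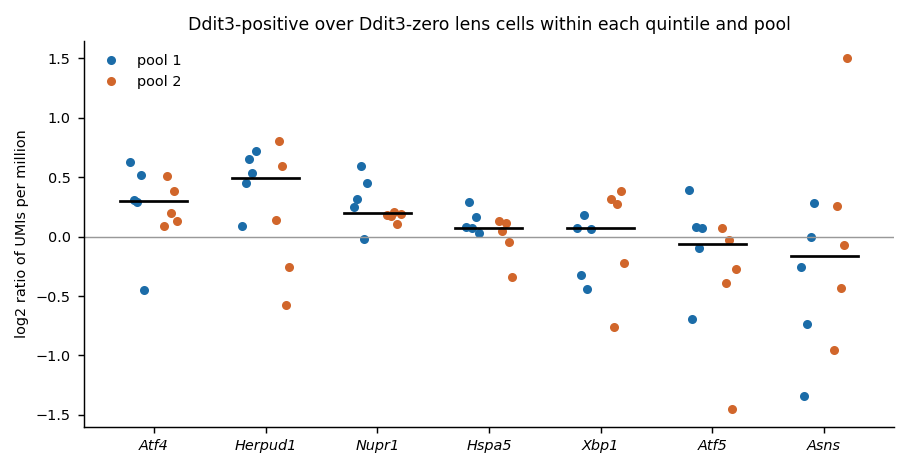
Log2 ratio (y axis) of CPM, with 1 CPM added, in Ddit3-positive over Ddit3-zero lens cells thinned to 3000 UMIs, 1 point per quintile and pool, with the median of the 10 points as a line. Points of Atf4 and Nupr1 lie above 0 in 9 of 10 strata, and those of Asns and Atf5 scatter around 0.

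Related genes were read in 8 lists. In quintile 5 against quintile 1, 33.2% of all tested genes were higher and 33.5% lower, and counts near these shares are not a result about a list. On total UMIs 1599 of the 13085 genes were higher and 8291 lower. The list of ER chaperones and folding enzymes moved with Hspa5, with 15 of its 20 genes lower and 2 higher in quintile 5 against quintile 1 (median -0.36 on the log2 scale, against -0.01 over all genes). On total UMIs all 20 were lower (median -0.83, against -0.47). Calr, a lectin chaperone of the ER, was at 322 and 259 CPM in quintile 5 against 804 and 646 CPM in quintile 1 (-0.86), and Hsp90b1, the ER member of the Hsp90 family, was at 319 and 285 CPM against 735 and 674 CPM (-0.76). Pdia6, a disulfide isomerase, was higher with TMM (0.23) and lower on total UMIs (-0.24), and Ppib, a prolyl isomerase, was not called with TMM (-0.05). ER-associated degradation and translocation was split, with 9 of 24 genes higher and 9 lower (median -0.02). There Vcp, the ATPase that pulls proteins out of the ER, was higher with TMM (0.53) and not called on total UMIs (0.06), Ssr2 (-0.27) and Sec61g (-0.17) were lower, and Sec61b was higher with TMM (0.19) and lower on total UMIs (-0.27). In endothelial-like against lens cells 15 of 19 tested chaperone genes were lower and 3 higher (median -0.68, against -0.05 over all genes). Of all tested genes 32.5% were lower there and 30.8% higher.

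Lists of ATF4 targets did not move as one. Their counts stand beside 33.2% of all tested genes higher and 33.5% lower in quintile 5 against quintile 1. Of 12 aminoacyl-tRNA synthetases 8 were higher and 2 lower in quintile 5 against quintile 1 (median 0.21, against -0.01), among them Sars (1.01, 0.54 on total UMIs) and Lars (0.69, 0.23 on total UMIs). On total UMIs 3 were higher and 8 lower (median -0.26, against -0.47), and Eprs and Nars changed sign (0.14 and -0.32, 0.20 and -0.26). Of 19 tested genes of amino acid and one-carbon supply 5 were higher and 9 lower. Slc7a11, the cystine transporter, was at 19.4 and 11.5 CPM in quintile 5 against 222 and 217 CPM in quintile 1 (-3.34 ± 0.09), and Phgdh, the first enzyme of serine synthesis, was at 184 and 181 CPM against 843 and 851 CPM (-1.75 ± 0.03). Slc3a2, the shared chain of several amino acid transporters, was at 550 and 487 CPM against 667 and 574 CPM (0.20 with TMM, -0.26 on total UMIs). Slc38a2 was at 353 and 326 CPM against 499 and 435 CPM, not called with TMM (0.01) and lower on total UMIs (-0.46). Of 14 tested other targets of ATF4 and CHOP 7 were higher and 6 lower. Atf3 was at 308 and 353 CPM in quintile 5 against 77.8 and 70.8 CPM in quintile 1 (2.61 ± 0.07, 2.15 on total UMIs), Eif4ebp1, a repressor of translation, was higher with TMM (0.56) and not called on total UMIs (0.10), and Ero1l, an ER oxidase, was lower (-0.41).

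Among 12 sensors and eIF2 regulators 3 were higher and 5 lower in quintile 5 (median -0.11), where 33.2% and 33.5% of all tested genes were. Eif2s1, the subunit of eIF2 that the stress kinases phosphorylate, was higher with TMM (0.55) and not called on total UMIs (0.08), and Ppp1r15a was lower, with 21.6 and 22.2 CPM in quintile 5 against 53.0 and 48.3 CPM in quintile 1 (-0.75). Mbtps1, the protease that activates ATF6, was lower (-0.49), and Eif2ak1, the eIF2 kinase that senses heme shortage, was not called with TMM (-0.09) and was lower on total UMIs (-0.56). Of 9 genes of the mitochondrial unfolded protein response 4 were higher and 1 lower, with Clpp, a matrix protease, at 0.60 (0.14 on total UMIs) and Hspd1 and Hspa9, matrix chaperones, not called with TMM (0.05 and 0.07) and lower on total UMIs (-0.41 and -0.40). Hspe1, the co-chaperonin of Hspd1, was lower by -0.09 (-0.56 on total UMIs), a call that DESeq2 did not make. In endothelial-like cells 4 of 11 tested sensors and regulators were higher and 2 lower, where 30.8% and 32.5% of all genes were. In mural-like cells 3 were higher and 2 lower, where 28.1% and 27.5% of all genes were. Ppp1r15a was at 204 and 172 CPM in endothelial-like and 332 and 349 CPM in mural-like cells, against 43.4 and 41.6 CPM in lens cells (1.92 and 2.83 on the log2 scale). Of the supply genes, Slc3a2 was at 1543 and 1291 CPM in endothelial-like and 227 and 232 CPM in mural-like cells, against 637 and 555 CPM in lens cells (1.01 and -1.54). Phgdh was at 27.0 and 19.8 CPM in endothelial-like and 24.0 and 10.8 CPM in mural-like cells, against 643 and 664 CPM in lens cells (-5.00 and -5.49), which is again a few percent of the lens level. In mural-like cells 11 of 15 tested supply genes were lower and 2 higher (median -1.64, against -0.04).

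**Figure D5:**
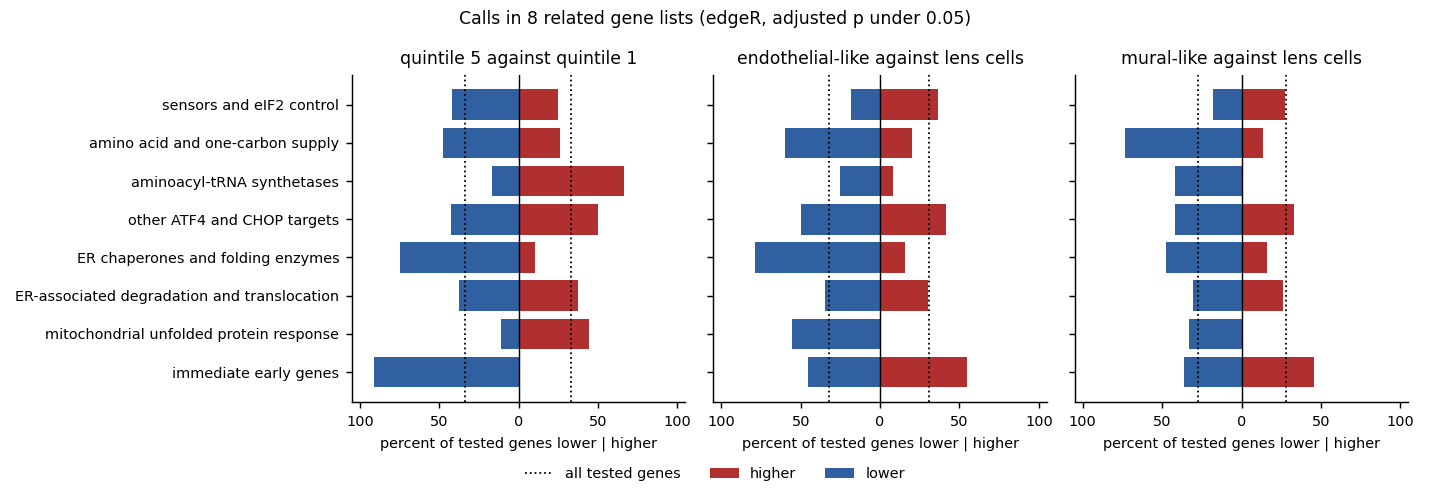
Share of tested genes called higher (right of 0) or lower (left of 0) by edgeR in 8 lists for quintile 5 against quintile 1 and for endothelial-like and mural-like against lens cells, with dotted lines at the share of all tested genes (33.2% higher and 33.5% lower in the left panel). ER chaperones lean to the lower side in all 3 panels, and aminoacyl-tRNA synthetases lean to the higher side in the left panel only.

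The genes whose level followed a member most closely over 14 sums (5 quintiles, endothelial-like and mural-like cells of both pools) were ranked by Pearson's r of log2 CPM over 6054 genes, as a description in which all sums of a pool share a library. For Atf4 they were Arhgef12 (0.98), Ier2 (0.98), an immediate early gene, and Brd2 (0.98). For Hspa5 they were Adgrl1 (0.99), Alad (0.98) and Slc5a3 (0.98). For Ddit3 they were Nudt9 (0.93), Dcaf10 (0.92) and Pigk (0.92), a weaker match than for the other members.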

How the data were processed

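Single-cell 3′ libraries (10x Genomics v3.1 chemistry) of 2 pools of lens epithelium were used. The authors deposited raw UMI counts per gene and barcode, made with Cell Ranger 6.1.1 on mm10, and nothing was normalized. Kept barcodes lay between percentiles 2 and 97 of both gene number and UMI number, taken over the pools together, and had at most 15% mitochondrial UMIs. In each pool the top 8% by Scrublet score was then dropped as likely doublets. A cell was called endothelial-like, mural-like or macrophage-like when at least 0.5% of its UMIs, from at least 3 genes, were in that marker list and under 2% came from Cryaa and Cryab. Lens cells had at least 2% from these and under 0.2% from other lists. No gate named 53 cells. Within 0.1 percentage points of the endothelial and mural limits lay 4 and 1 cells, and 40 cells lay near the Cryaa and Cryab limit. The fixed shares of 0.1% and 1% were added after the distribution had been seen, with 882 and 340 lens cells near them.

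UMI counts were summed per pool and group. Sums were tested with edgeR 4.0.16 in R 4.3.3 (TMM, its default filter on low counts, quasi-likelihood test, Benjamini-Hochberg adjustment over all tested genes at 0.05). The pool entered as a block, because the cells on both sides of each comparison come from the same animals. DESeq2 1.42.0 was an alternative, and the fits were tested on simulated data. P-values rest on 2 pools. Intervals on CPM are exact Poisson at 95% and cover counting error only, and the limit for a count of 0 is 3 UMIs. The SE of a log2 fold change was derived from edgeR's F statistic. Its 95% interval is a normal approximation, which is too narrow for so few sums. Of each list the 4 genes most abundant in lens cells were named, whatever their change. The members and lists were chosen with earlier results of these data known. Gene rows are named as in the deposited tables. How antisense reads were counted is not given in the sources used here, and the 3′ end of Ddit3 overlaps a gene on the other strand.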

Additional observations from a re-analysis of the deposited data

How the results depend on the processing

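Nupr1, Hspa5 and Atf4 kept their direction and their call in quintile 5 against quintile 1 under every alternative with a test, and in that comparison by DESeq2, without the filter on low counts, without crystallins and without doublet removal no member changed direction. The results below changed, and the cause was not tested. Where cells were left out, added or thinned for a quintile comparison, the quintiles were formed anew from the cells used. They are then not the same groups of cells as above. Scaling to total UMIs lowers all genes in crystallin-rich sums when set against TMM.

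On total UMIs, quintile 5 against quintile 1 had 1 member higher and 5 lower (1599 and 8291 of all genes), with Atf5 -0.40, Ddit3 -0.11, Asns -0.10, Herpud1 -0.18, Pdia6 -0.24, Sec61b -0.27, Slc3a2 -0.26, Slc38a2 -0.46, Eprs -0.32, Nars -0.26, Hspd1 -0.41 and Hspa9 -0.40. Quintile 5 against quintile 4 had 1 higher and 5 lower (1338 and 8259 genes), with Atf5 -0.22, Ddit3 -0.0628 and Herpud1 -0.38, where TMM gave 3 and 3 (3841 and 3925 genes). For quintile 4 against quintile 1, 649 genes were higher, where TMM gave 1026. A share of 1% or more against under 0.1% had 1 member higher and 5 lower (1455 and 9138 genes), with Atf5 -0.44 and Herpud1 -0.42, where TMM gave 4 and 2 (4488 and 4546 genes). Against 0.1 to 1% it had 2 and 5 (736 and 7869 genes), with Atf4 -0.24, Atf5 -0.37 and Xbp1 -0.29, where TMM gave 4 and 1 (2911 and 2849 genes). From under 0.1% to 0.1 to 1%, 1 member and 1555 genes were higher, where TMM gave 2 and 2816. Between the vascular classes 1 member, Herpud1, was higher (1955 of 10193 genes), and Vcp was at 0.0046 in endothelial-like against lens cells.

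Without the replicate block, 2 members were higher in quintile 5 against quintile 1 (3456 of 13085 genes), 1 in quintile 4 against quintile 1 (131 genes higher and 452 lower), 0 in Ddit3-positive cells (2 genes higher, Ddit3 and Atf3, and 0 lower, where the block gave 120 and 44), and 2 at 1% or more against 0.1 to 1% (1962 genes of 12851). At 1% or more against under 0.1%, 1 member was lower (3931 genes), and from under 0.1% to 0.1 to 1%, 1 was higher and 2 lower (1669 and 2027 genes). By DESeq2, 1 member was higher in quintile 4 against quintile 1 (415 genes higher and 723 lower, where edgeR gave 1026 and 1280), 0 in Ddit3-positive cells (38 and 2 genes), and 1 from under 0.1% to 0.1 to 1%, with 2 lower (1511 and 1612 genes). At 1% or more, 1 member was lower against under 0.1% (3263 genes), and 1706 genes were lower against 0.1 to 1%.

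Thinned to 3000 UMIs, 1 member was higher in quintile 5 against quintile 1 (3012 of 11737 genes) and 1 against quintile 4 (2600 genes higher and 2595 lower). Quintile 4 against quintile 1 had 502 and 684 genes, endothelial-like against lens cells 2048 genes lower, and the vascular classes 1130 and 1248 genes. Ordered by Cryba1 and Crybb3, quintile 4 against quintile 1 had 2685 genes higher and 2933 lower, and Sec61g was at 0.0371 and Hspe1 at 0.0929 in quintile 5. Without cells with cell cycle UMIs, Herpud1 was at -0.0782 and Slc38a2 at -0.40 in quintile 5 against quintile 1, Atf4 at 0.0306 in quintile 5 against quintile 4 (1 member lower, 2746 of 12198 genes), Hspa5 at -0.41 and Xbp1 at -0.12 in quintile 4 against quintile 1 (1 member higher and 1 lower, 1071 and 1067 genes), Herpud1 at -0.13 at 1% or more against under 0.1%, and Herpud1 at -0.0052 from under 0.1% to 0.1 to 1% (1 member higher, 1977 of 12607 genes). Slc38a2 was at -0.0898 without upper limits and at -0.43 in decile 10 against decile 1, and Atf3 at 0.85 in mural-like cells against lens cells of quintiles 1 and 2. Between the vascular classes, 2 members were lower without crystallins (1972 of 10287 genes), without doublet removal (2070 of 10390), without upper limits (2401 of 11931) and with lens cells of quintiles 1 and 2 (1954 of 10250). In Ddit3-positive cells, 2 members were higher with another thinning seed (77 and 15 genes), and 193 and 153 genes were called at 5000 UMIs.

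A single pool gives a log2 ratio and no test. Over the members called in quintile 5 against quintile 1, pools 1 and 2 gave 4.19 and 4.14 for Nupr1, -0.912 and -0.996 for Hspa5, -0.23 and -0.28 for Atf4, 0.20 and 0.49 for Ddit3, 0.46 and 0.19 for Asns and 0.14 and 0.43 for Herpud1. A member that was called in no fit was not counted as changed when its sign did. Depth limits Trib3, Chac1 and, in vascular cells, Asns and Atf5.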
